A study of Mus musculus with 4 samples.

Results

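Ubiquitous reference miRNAs are miRNAs present at broadly similar levels in most tissues, for which reason they are often used to scale other miRNAs between samples. The 7 members, mmu-miR-191-5p, mmu-miR-186-5p, mmu-miR-423-5p, mmu-miR-425-5p, mmu-miR-361-5p, mmu-miR-151-5p and mmu-miR-340-5p (mmu for Mus musculus, left out from here on), were taken by name and not by their values here. Each had 1 row among the 1059 mature miRNAs counted, and each was among the 274 that reached at least 10 counts in at least 2 libraries and were tested.

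Small RNA of the rostral-most telencephalic primordium, the early wall of the forebrain, was sequenced at E11.5, with 2 libraries of mutants (genotype RxCre-DicerF/F, called Rx-Dicer) and 2 of control littermates (DicerF/F). Both genotypes carry the floxed Dicer alleles, and the mutants carry Rx3-Cre in addition, which is driven by the Rx3 promoter and was kept on a CD1 background, whereas the floxed line was kept on C57BL/6. The libraries labelled WT are therefore named control. Tissue outside the cells that expressed Cre, such as blood, vessels and mesenchyme, keeps Dicer in both genotypes. The number of embryos behind a library was not given in the sources used here, so a p-value measures only the spread between these libraries, which may be technical.

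A miRNA is cut from its hairpin by Dicer, and 1 strand of the resulting duplex is loaded into an Argonaute protein, which it guides to mRNAs that match its seed, bases 2 to 8. Small RNA counts are shares of a library: when many miRNAs fall, those that stay constant per cell take a larger share. A reference miRNA is then expected to give a scale between libraries, but it is itself a Dicer product, and neither its level per cell nor any absolute amount was measured.

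The mature sequences of 6 members were found in the RefSeq table of GRCm38.p6, and miR-151-5p was not matched. They are shown because identical reads would make 2 members the same measurement, and capitals mark the seed.
miR-191-5p: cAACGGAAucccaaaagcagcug
miR-425-5p: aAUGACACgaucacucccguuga
miR-186-5p: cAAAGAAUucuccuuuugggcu
miR-361-5p: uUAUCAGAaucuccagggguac
miR-423-5p: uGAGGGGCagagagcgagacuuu
miR-340-5p: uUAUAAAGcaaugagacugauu
The 6 sequences had 6 distinct seeds, so they form no seed family. The longest run of bases that any of them shared with another was 6, and the longest shared with any other of the 895 mature miRNAs with a sequence was 8 to 10. Among those 895, the only miRNA with the seed of any of the 6 was miR-6921-5p, which shares that of miR-423-5p. It was counted 0, 0, 1 and 0 times in the 4 libraries. miR-151-5p, without a sequence here, was not compared. The G and C content of the 6 ran from 27.3% in miR-340-5p to 56.5% in miR-423-5p.

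The hairpins lay at 6 places of mm10, as annotated in GENCODE M21. Mir191 (chr9:108568319-108568392, plus strand) and Mir425 (chr9:108568777-108568861, plus strand) were 384 bases apart, and 1 of the 2 annotated transcripts of the lincRNA 4833445I07Rik held both within its exons, and Mir191 was also overlapped by the predicted miRNA gene Gm24083 on the other strand. The other 5 lay in introns, on the strand of their host gene. Mir186 (chr3:157544279-157544349, plus) was in Zranb2, Mir423 (chr11:77078064-77078172, minus) in Nsrp1, and Mir361 (chrX:113074824-113074893, minus) in Chm. Mir151 (chr15:73254815-73254882, minus) was in Ptk2, which encodes focal adhesion kinase, and also in an intron of the antisense gene 1700085D07Rik on the other strand. Mir340 (chr11:50069702-50069799, plus) was in Rnf130. The other arms of these hairpins were not analysed here.

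Libraries held 516517 to 651031 mature miRNA counts in Rx-Dicer and 1133553 to 1299067 in controls. miR-9-5p, the most abundant forebrain miRNA, took 28.2% and 29.4% of each mutant library (Rx-Dicer 1 and 2) and 31.5% and 42.6% of each control library (control 1 and 2). Because it moves all other shares, values below are CPM (counts in each 1000000 of a library's total), further scaled by TMM (trimmed mean of M-values, which equalises the bulk of miRNAs between libraries) and called scaled CPM. Before any scaling, the 7 members together took 2.18% (95% Wilson interval 2.14 to 2.21), 2.37% (2.33 to 2.41), 2.49% (2.46 to 2.52) and 1.56% (1.54 to 1.59) of the counts in the same order of libraries. Their summed share was lowest in control library 2, the library with the highest share of miR-9-5p. Intervals of this kind cover counting error of reads only, and not the spread between libraries. The paper's methods name no molecular identifiers, so reads may include copies of the same molecule. In whole tissue, fewer cells of a type and less RNA per cell cannot be told apart.

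The members fell into 4 tiers of level, with no overlap between tiers. miR-191-5p was the most abundant and ranked 20 of 1059, miR-423-5p and miR-340-5p ranked 38 and 39, and miR-186-5p, miR-361-5p, miR-425-5p and miR-151-5p ranked 83, 94, 100 and 140. miR-191-5p stood at 2.0 to 3.45 times the count of miR-423-5p in each of the 4 libraries, and miR-340-5p at 6.00 to 8.18 times that of miR-186-5p. The order of miR-423-5p over miR-340-5p held in 3 of 4 libraries and their ranges overlapped. miR-186-5p was above miR-361-5p, and miR-361-5p above miR-425-5p, in all 4 libraries, but with overlapping ranges, by 1.01 to 1.29 and 1.03 to 1.44 times. miR-151-5p stood apart below them, with miR-425-5p at 2.10 to 2.65 times its count.

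**Figure D1:**
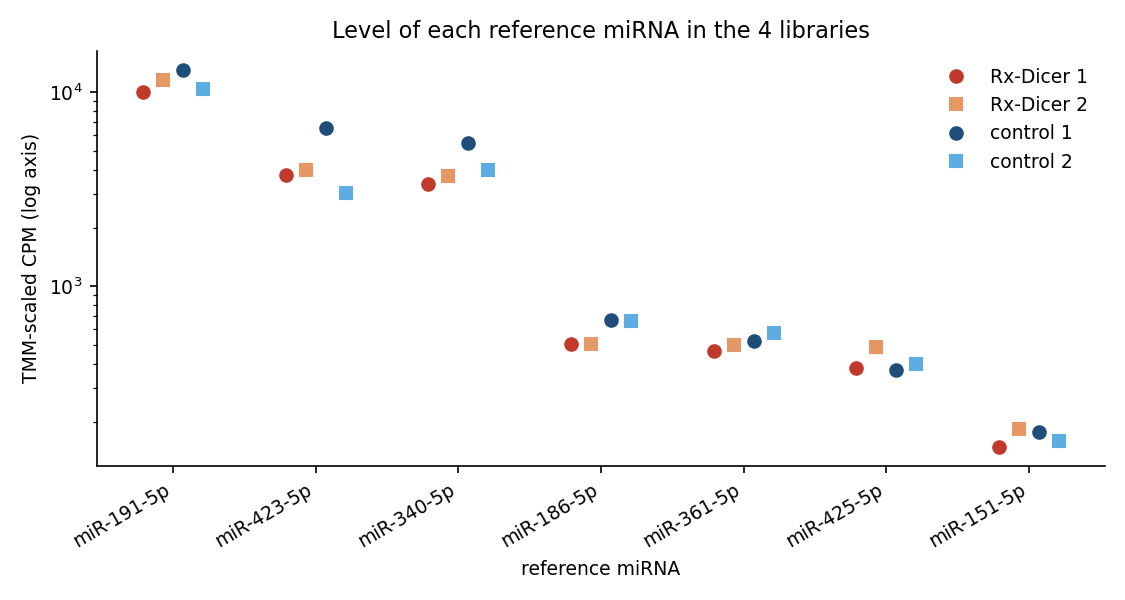
Scaled CPM (TMM) of the 7 reference miRNAs on a log axis, with 1 point per library and 2 libraries per genotype. miR-423-5p is the member whose 2 control libraries lie farthest apart, at 6546 and 3023.

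In scaled CPM, with the Rx-Dicer libraries 1 and 2 before the control libraries 1 and 2 throughout, miR-191-5p stood at 10019, 11515, 13089 and 10424. The genotypes overlapped, with 10767 ± 1058 (SD, n = 2) in Rx-Dicer and 11757 ± 1884 in control. The log2 fold change was -0.13 (SE 0.25, 95% interval -0.72 to 0.47, edgeR adjusted p = 0.915).

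miR-425-5p, annotated in the same lincRNA transcript, stood at 381, 488, 372 and 398, that is at 434 ± 75.3 in Rx-Dicer and 385 ± 18.1 in control (n = 2 each), with the highest value in Rx-Dicer library 2. It was the only member with a positive estimate, 0.17 (interval -0.41 to 0.75, adjusted p = 0.856). Its genotypes overlapped, since Rx-Dicer library 1 lay below control library 2.

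miR-151-5p had values of 149, 184, 177 and 159, with 166 ± 25.2 in Rx-Dicer and 168 ± 12.5 in control (n = 2 each). Its 2 extremes were the 2 mutant libraries, and the estimate was the closest to 0 of the 7, at -0.02 (interval -0.70 to 0.66, adjusted p = 0.990). It rested on 108 to 213 counts per library.

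miR-361-5p stood at 464, 501, 521 and 575, and miR-186-5p at 506, 505, 672 and 664. In both, each Rx-Dicer library lay below each control library. The gap was narrow for miR-361-5p, with 483 ± 26.4 against 548 ± 37.9 (n = 2 each), and the estimate was -0.18 (interval -0.71 to 0.34, adjusted p = 0.822). miR-186-5p was the tightest within genotypes, at 505 ± 0.949 against 668 ± 6.23 (n = 2 each), a spread smaller than counting error alone gives on average (SD of log2 values 0.0097 within genotypes, against 0.0678). Its estimate was -0.40 (interval -0.92 to 0.12, adjusted p = 0.591), and its unadjusted p of 0.112 was the smallest of the 7.

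miR-340-5p stood at 3362, 3716, 5502 and 3978, with control library 1 far above the other 3. The genotypes did not overlap, with 3539 ± 249.7 in Rx-Dicer and 4739.7 ± 1077 in control (n = 2 each), and the estimate was -0.42 (interval -1.06 to 0.21, adjusted p = 0.603). Without control library 1 it was -0.13.

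miR-423-5p stood at 3744, 3968, 6546 and 3023. The 2 mutant libraries lay between the 2 controls, which differed 2.17-fold, so that the mean was 3856 ± 159 in Rx-Dicer and 4784 ± 2492 in control (n = 2 each). The difference between controls was far larger than counting error, since its unscaled level was 6064 CPM (95% Wilson interval 5932 to 6199) in control library 1 and 2460 CPM (2370 to 2552) in control library 2. The estimate of -0.31 had the widest interval of the 7 (-1.19 to 0.56, adjusted p = 0.816). It rested on which control was used: it was 0.39 without control library 1 and -0.81 without control library 2.

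None of the 7 members passed the adjusted threshold of 0.05 in edgeR's test, none had an unadjusted p under 0.05, and DESeq2's Wald test called none. Among all 274 miRNAs, 2.55% were lower in Rx-Dicer and 0% higher at the adjusted threshold, while without adjustment a p under 0.05 was reached by 8.39% in the lower and 1.09% in the higher direction. At so low a background, 0 of 7 is no result about the members, and a p that misses the threshold does not show that their levels were equal. In 3 of 7 members (miR-186-5p, miR-361-5p and miR-340-5p) both Rx-Dicer libraries were below both controls, and in 0 of 7 above, against 24.5% and 17.9% of all miRNAs tested. With total counts only, the same count was 0 of 7 below and 3 of 7 above, where 8.39% of all miRNAs tested were below and 48.5% above. The intervals were wide with a pair of libraries per genotype. That of miR-361-5p allowed 0.612 to 1.27 times the control level, and that of miR-423-5p 0.439 to 1.48 times. The median estimate of the members was -0.18, beside 0.04 over all miRNAs tested, and 6 of 7 lay below that median. Without control library 1 the median of the members was 0.08, beside 0.04 over all, and without control library 2 it was -0.32, with miR-423-5p and miR-340-5p at an unadjusted edgeR p under 0.05, as were 12.8% of all 265 miRNAs in that fit in the lower direction.

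Stability was described as the SD of log2(scaled CPM + 1) over the 4 libraries, whatever their genotype. miR-361-5p was the steadiest member, at 0.13, followed by miR-151-5p (0.14), miR-191-5p (0.17), miR-425-5p (0.18) and miR-186-5p (0.23). They ranked 13, 17, 29, 34 and 63 of 274 from the steadiest, and the highest library was 1.24 to 1.33 times the lowest in each. miR-340-5p (0.31, rank 113, 1.64-fold) was near the middle, and miR-423-5p (0.47, rank 193, 2.17-fold) was less steady than most. Single libraries set some of these values. Without control library 1 the spread of miR-423-5p was 0.23 (rank 103), of miR-340-5p 0.11 (rank 32) and of miR-191-5p 0.11 (rank 35), beside a median of 0.28 over all tested miRNAs, and without Rx-Dicer library 2 that of miR-425-5p was 0.04. Over the 4 libraries, the median was 0.18 over the members and 0.36 over all tested miRNAs. Among the 157 miRNAs of at least 100 scaled CPM, where counting error is smaller, the median was 0.31. In both sets, 6 of 7 members lay below the median, miR-423-5p being the exception. Against the median of all tested, miR-423-5p was below without control library 1 (0.23 against 0.28). miR-340-5p was above it without Rx-Dicer library 2 (0.36 against 0.34) and without control library 2 (0.40 against 0.36). Counting error alone gives an SD of 0.12 for miR-151-5p, beside its spread of 0.14, but 0.02 for miR-191-5p, beside 0.17.

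**Figure D2:**
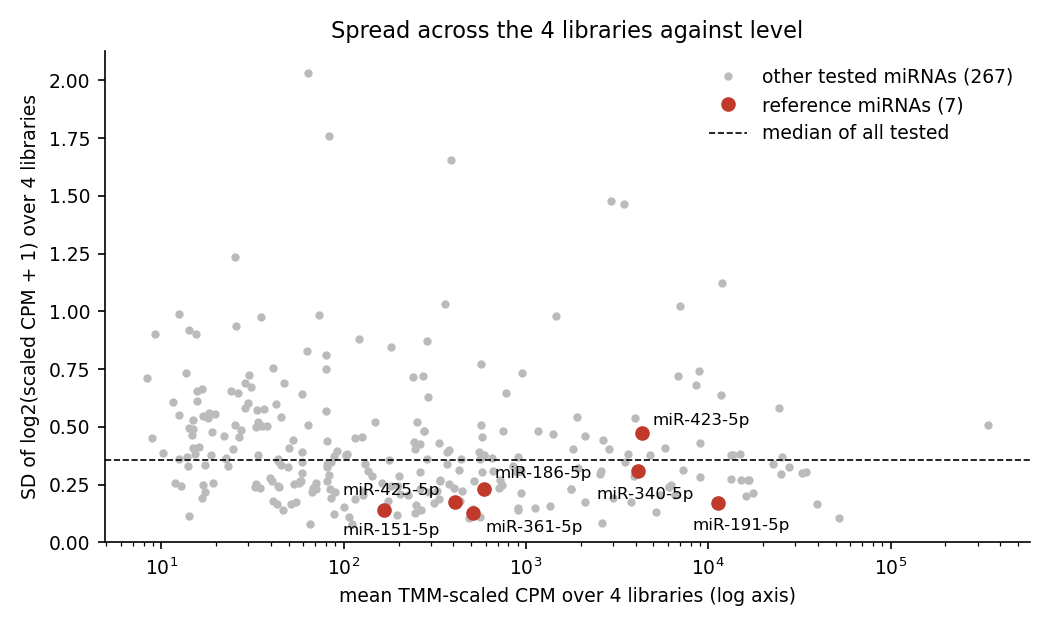
SD of log2(scaled CPM + 1) over the 4 libraries against mean scaled CPM (log axis) for the 274 tested miRNAs, with the 7 members in red and the median of all tested as a dashed line. miR-423-5p (0.47) lies above the line of 0.36 and the other 6 members lie below it.

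Some abundant miRNAs were steadier. Of the 64 miRNAs with at least 1000 scaled CPM, miR-191-5p ranked 7, miR-340-5p 30 and miR-423-5p 50. The steadiest of the 64 was miR-16-5p, itself a common reference and a miRNA linked to cell cycle control, at 2567, 2547, 2521 and 2861 scaled CPM (SD of log2 0.09). It was followed by miR-99b-5p (0.10), miR-382-5p (0.13), miR-224-5p (0.15) and miR-185-5p (0.16). Of 22 further miRNAs in use as references, 12 had a row and were tested. None was called in either direction. Their median estimate was -0.16 and their median SD 0.24, and 11 of the 12 were below the median SD of all tested. They ran from miR-324-5p (0.08, rank 1 of 274) to let-7a-5p (0.64, rank 231). miR-324-5p was counted only 40 to 82 times a library, and counting error alone gives it an SD of 0.20, above its spread. let-7a-5p belongs to the let-7 family, to which all 7 miRNAs called lower in Rx-Dicer belong, 6 by name and miR-98-5p by its seed. In 6 of 12 (miR-26a-5p, miR-26b-5p, miR-30c-5p, miR-30e-5p, miR-484 and let-7a-5p) both mutant libraries were below both controls, and in 0 of 12 above, against the 24.5% and 17.9% of all tested.

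The miRNA with the most constant ratio to each member was looked for among 150 candidates of at least 100 scaled CPM, over the same 4 libraries. With so few libraries a close match in some candidate is easily found, so the pairs are given as a description. miR-151-5p went with miR-877-5p (SD of the log2 ratio 0.01, below the counting error of miR-151-5p itself), miR-361-5p with miR-148a-5p (0.02), miR-340-5p with miR-484 (0.05), miR-191-5p with miR-412-5p (0.08), miR-425-5p with miR-666-5p (0.08) and miR-186-5p with miR-185-5p (0.08). The loosest was miR-423-5p with miR-92b-5p (0.16). miR-92b-5p stood at 2244, 2737, 4147 and 2336 scaled CPM, so it too was highest in control library 1.

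The scaling between libraries set the sign of most members. Using 7 scalings, the median estimate of the members ran from -0.47 to 0.23, and over all miRNAs from -0.25 to 0.44, so a scaling moved both together. The median of the members minus that of all miRNAs was -0.21 to -0.24 under each, as a scaling shifts all miRNAs alike. With total counts alone (no further factor) 1 of 7 members was negative and with TMM 6 of 7, where 21.9% and 45.6% of all miRNAs were negative. When the geometric mean of miR-144-5p, miR-451a and miR-486a-5p, which are miRNAs of red cells, was set equal between libraries, 7 of 7 were negative and 70.4% of all were. These red-cell miRNAs weigh equally in that scaling, although miR-144-5p had only 14, 21, 23 and 38 counts. Counting error alone gives miR-144-5p an SD of 0.31, so values under this scaling rest partly on few counts. None of the members was called under any of the 7, and the smallest unadjusted p of a member under any was 0.0535.

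**Figure D3:**
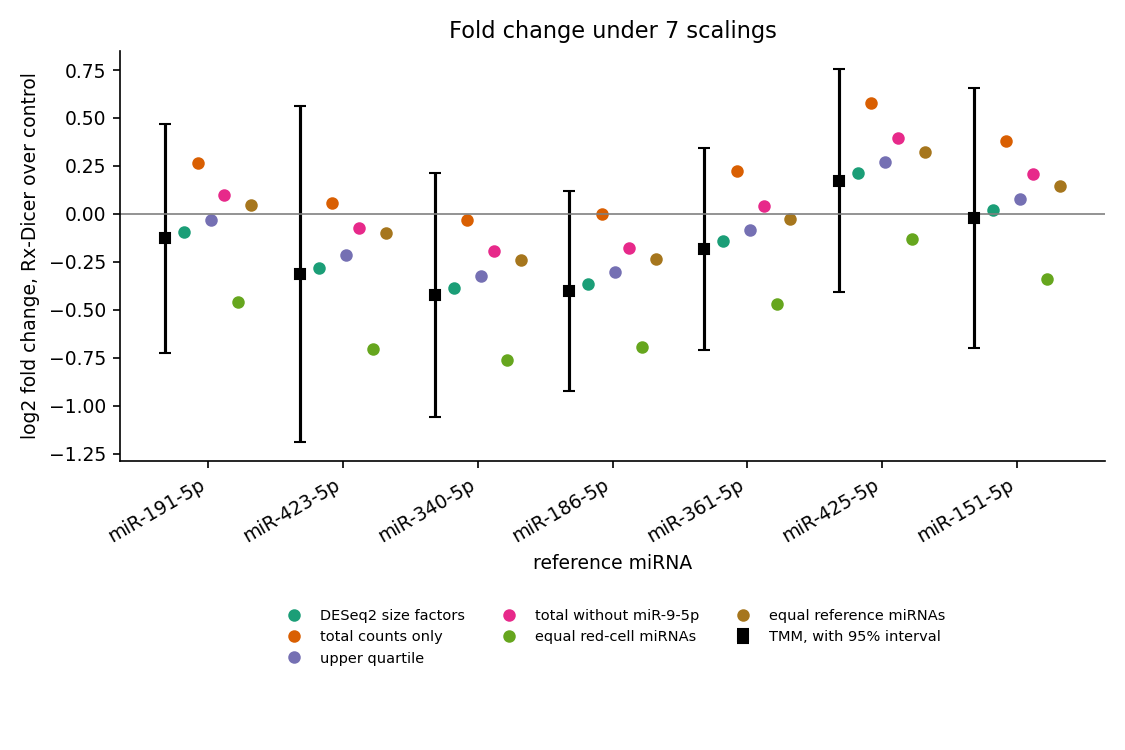
Log2 fold change of each reference miRNA, Rx-Dicer over control (2 libraries each), with TMM as black squares and 95% intervals and the other 6 scalings as coloured points. Setting red-cell miRNAs equal gives the lowest value and total counts only the highest for each member.

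miR-340-5p was the one member negative under all 7 scalings, from -0.76 to -0.03. miR-186-5p ran from -0.69 to 0.002, miR-423-5p from -0.70 to 0.06 and miR-361-5p from -0.47 to 0.23. miR-191-5p ran from -0.46 to 0.27, miR-151-5p from -0.34 to 0.38 and miR-425-5p from -0.13 to 0.58. The order of stability shifted as well. miR-361-5p was the steadiest member under 4 of the scalings, miR-186-5p under total counts only, miR-425-5p with red-cell miRNAs equal and miR-191-5p with the members themselves set equal, a scaling built from these same values. miR-423-5p was the least steady under all 7. The median SD of the members was 0.17 to 0.28 under 6 scalings and 0.43 with red-cell miRNAs equal, where that of all miRNAs was 0.48. The geometric mean of the members was 1077, 1213, 1406 and 1172 scaled CPM, a range of 1.31-fold with TMM. Among the scalings not built on the members, that range was narrowest with the total taken without miR-9-5p, at 1.17-fold, and widest with red-cell miRNAs equal, at 1.95-fold.

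Ratios between members within a library do not depend on any scaling. Over the 21 pairs the SD of the log2 ratio ran from 0.10 to 0.55, with a median of 0.26. The tightest was miR-191-5p over miR-151-5p, at 67.5, 62.5, 73.9 and 65.4, for which counting error alone gives 0.13. The loosest was miR-423-5p over miR-425-5p, at 9.82, 8.14, 17.6 and 7.60. The 6 pairs with miR-423-5p had a median SD of 0.44 and the 15 others one of 0.22. miR-191-5p over miR-425-5p, the pair annotated within 1 transcript, was at 26.3, 23.6, 35.2 and 26.2 (SD 0.25), with control library 1 above the other 3.

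**Figure D4:**
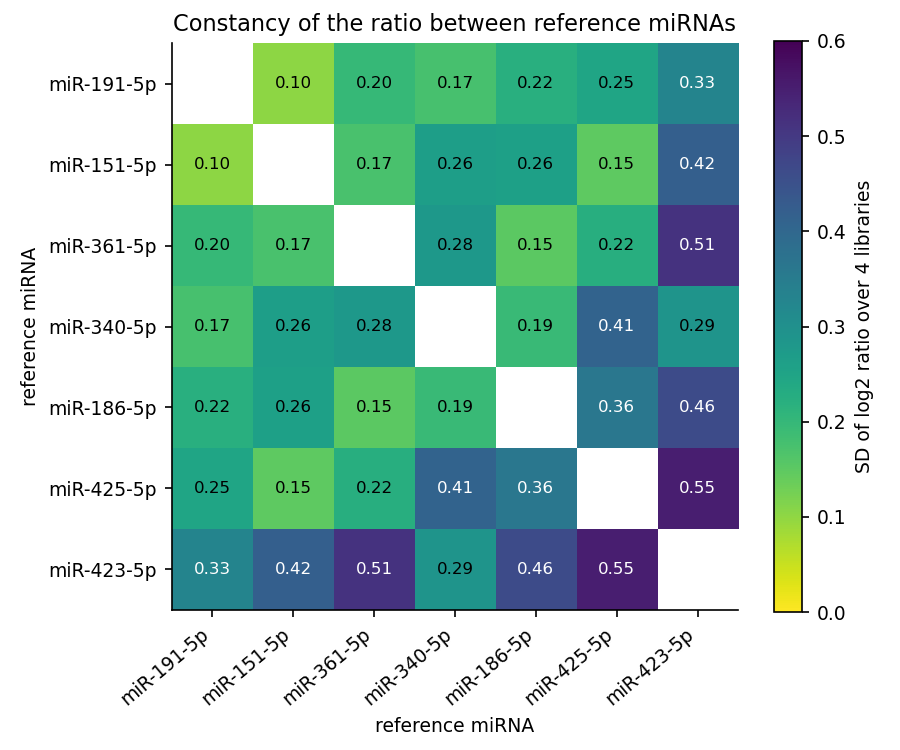
SD over the 4 libraries of the log2 ratio between each pair of reference miRNAs, for all 21 pairs. Pairs that hold miR-423-5p reach the largest value, 0.55, and miR-191-5p over miR-151-5p has the smallest, 0.10.

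In 9 of the 21 pairs, all without miR-423-5p, the ratio in both mutant libraries lay on the same side of both controls. The same held for 48.8% of the 12246 pairs among the 157 miRNAs of at least 100 scaled CPM, so the count is no result about the members. The ratio of miR-425-5p to miR-340-5p was 0.113, 0.131, 0.0677 and 0.100, with a mean log2 difference of 0.57 between Rx-Dicer and control. The ratio of miR-186-5p to miR-425-5p was 1.33, 1.03, 1.81 and 1.67, with a difference of -0.57. No pair was tested. Both differences set miR-425-5p, the only member with a positive estimate with TMM, against the members with the lowest estimates, so their size follows from those estimates. Which member of a pair moved cannot be told from their ratio.

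The choice of member sets the size of change read for another miRNA. let-7i-5p, a let-7 family member that restrains proliferation in many tissues, was read against each in turn, having been chosen with its own call known (TMM: log2 fold change -1.77, edgeR adjusted p = 0.0188). Against miR-340-5p the ratio was 0.903, 0.892, 2.10 and 2.53, and against miR-425-5p it was 7.96, 6.79, 31.1 and 25.3. The fall was 2.57-fold and 3.81-fold respectively, the lowest and highest of the 7, and both mutant libraries were below both controls for each reference. With 1 member set equal, edgeR's log2 fold change of let-7i-5p ran from -1.36 (miR-186-5p) to -1.93 (miR-425-5p). It was -1.63 with miR-423-5p and -1.37 with miR-340-5p. The adjusted values that follow were not in the order of these estimates, so a high one does not show a smaller fall. In the edgeR fit with 1 member set equal, the adjusted p was 0.0137 with miR-425-5p, 0.0232 with miR-151-5p, 0.0483 with miR-191-5p, 0.0658 with miR-186-5p, 0.120 with miR-361-5p, 0.239 with miR-340-5p and 0.999 with miR-423-5p. With all 7 set equal it was 0.0572, and without miR-423-5p, an alternative chosen after the data were seen, 0.0206.

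**Figure D5:**
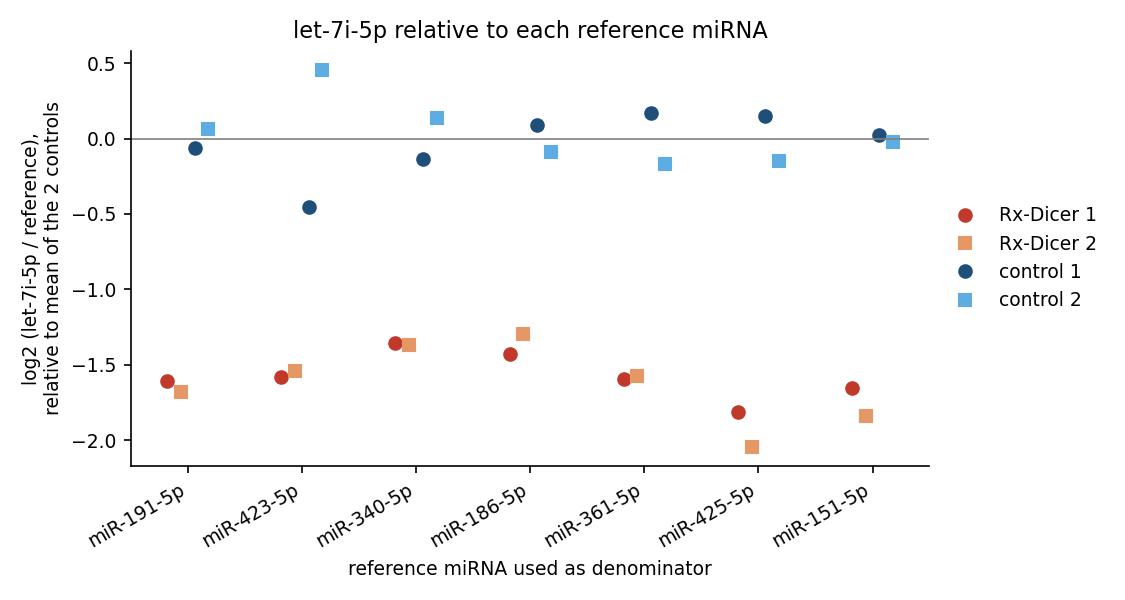
Log2 ratio of let-7i-5p to each reference miRNA, relative to the mean of the 2 controls, with 1 point per library. The mean difference of Rx-Dicer from control runs from -1.36 to -1.93, and the 2 controls are farthest apart with miR-423-5p as the denominator.

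let-7a-5p did not pass with TMM at the 10-count minimum (-1.08, edgeR adjusted p = 0.105). It was called lower with no count minimum, with at least 100 counts and in DESeq2's Wald test. Against all 7 members too, let-7a-5p was lower in both mutant libraries than in both controls. The fall was 1.58-fold (miR-340-5p and miR-186-5p) to 2.34-fold (miR-425-5p). For let-7a-5p as for let-7i-5p, the 7 ratios share 1 numerator in the same libraries, so they are not separate observations. Among pairs of miRNAs of at least 100 scaled CPM, 48.8% of ratios separated the genotypes in either direction. Over all miRNAs, the number called lower was 7 with TMM, 8 with miR-425-5p set equal, 5 with miR-151-5p, 2 with miR-191-5p, 1 with miR-186-5p and 0 with each of miR-423-5p, miR-361-5p and miR-340-5p. None was called higher with any of them.

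Markers of other tissues were summed beside these results, in scaled CPM. Red-cell miRNAs (3 of 3 with a row) stood at 7595, 8504, 5737 and 6362, a sum made mostly of miR-486a-5p. Both miR-486a-5p and miR-451a (1059, 1095, 629 and 836) were higher in both mutant libraries, as were 17.9% of all miRNAs tested. The genotypes overlapped for miR-144-5p, at 18.4, 35.8, 19.1 and 41.2. Mesenchymal miRNAs (4 of 4) stood at 11170, 10645, 4207 and 10478, a sum made mostly of miR-199a-5p (10431, 10096, 3935 and 9787). Control library 1, the highest in miR-423-5p and miR-340-5p, was thus the lowest in this sum. Each of the 4 was lowest in that library, though miR-143-5p had only 13 to 40 counts. miR-143-3p, with a mean of 3950 scaled CPM, was not on the list. Neural miRNAs (3 of 3) stood at 243401, 262096, 344359 and 526690, nearly all of it miR-9-5p. The other 2 were miR-124-5p, at 195, 205, 359 and 297, higher in both controls as miR-9-5p was, and miR-92b-5p, which overlapped between genotypes. Of all miRNAs tested, 24.5% were higher in both controls. Epithelial miRNAs (5 of 5, miR-200c-5p at 0 in all libraries and miR-141-5p at 1 count in all) ranged from 201 to 808. Endothelial ones (1 of 2) ranged from 244 to 431 and those of white blood cells (1 of 3) from 59.0 to 106. The listed miRNAs without a row were miR-126a-3p, miR-142a-3p and miR-223-3p. For these 3 tissues only 5p arms were summed, so low sums do not show that the tissues were absent. None of the tested markers was called by edgeR with TMM at the 10-count minimum over all 4 libraries. miR-9-5p was called lower with no count minimum, and so were miR-200a-5p and miR-200b-5p without Rx-Dicer library 2. The part of these tissues in the values of the reference miRNAs was not tested.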

How the data were processed

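Small RNA of E11.5 telencephalic primordium was read as counts in 4 libraries, and groups were taken from the library titles. The authors deposited whole-number counts per pair of mature miRNA and precursor (1211 rows a library), without normalization, made per the paper's methods with miRDeep2 on mm10 and miRBase. Settings for mismatches were not given in the sources used here. FastQC, Trim Galore 0.6.5, HISAT2 and HTSeq are named in the submitters' processing notes with no role.

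The precursor row with the highest total was kept for each mature miRNA. The 274 miRNAs that reached 10 counts in 2 or more libraries were compared with edgeR 4.0.16 (limma 3.58.1, R 4.3.3) by its quasi-likelihood test, with TMM factors of 1.17, 1.14, 0.926 and 0.814 (Rx-Dicer 1 and 2, control 1 and 2), genotype as the only factor and Benjamini-Hochberg adjustment over all 274 at 0.05. DESeq2 1.42.0 was an alternative. Intervals of log2 fold changes came from the standard error and degrees of freedom of that test. A pseudocount of 1 CPM was used for spreads. Hairpins were placed with GENCODE M21 and sequences taken from RefSeq. Python 3.11.15 with scipy 1.17.1 gave the descriptions. Scripts were tested on simulated data. The members and lists were chosen with earlier results of these data known. The miRNAs named are the 7 members, those of the same seed, other common references, the closest match of each member by ratio, the 5 steadiest of at least 1000 CPM, and miR-9-5p, with tissue markers. let-7i-5p was added after its values were seen. Replicates of a genotype differed by far more than sampling noise. Scalings tried were DESeq2 size factors, total counts, upper quartile, total without miR-9-5p, equal red-cell miRNAs and equal reference miRNAs.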

Additional observations from a re-analysis of the deposited data

How the results depend on the processing

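No member was called under any alternative run. The direction of a member turned as follows. miR-151-5p became 0.0185 with DESeq2 size factors, 0.38 with total counts only, 0.0783 with upper quartile, 0.21 with the total without miR-9-5p, 0.15 with reference miRNAs equal and 0.0176 in DESeq2's Wald test. With total counts only miR-191-5p was 0.27, miR-186-5p 0.0022, miR-361-5p 0.23 and miR-423-5p 0.059. With the total without miR-9-5p miR-191-5p was 0.10 and miR-361-5p 0.039, with reference miRNAs equal miR-191-5p was 0.0465, and with red-cell miRNAs equal miR-425-5p was -0.13. Leaving out each library in turn gave -0.17 to 0.13 for miR-151-5p, -0.45 to -0.36 for miR-186-5p, -0.32 to 0.084 for miR-191-5p, -0.68 to -0.13 for miR-340-5p, -0.23 to -0.12 for miR-361-5p, -0.81 to 0.39 for miR-423-5p and -0.0019 to 0.34 for miR-425-5p, with the lone library of a genotype assumed to vary like the others.

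The median estimate of the members moved to 0.23 with total counts only, 0.039 with the total without miR-9-5p and -0.47 with red-cell miRNAs equal, and ran from -0.32 to 0.084 when a library was left out. The median spread moved to 0.43 with red-cell miRNAs equal, and ran from 0.16 to 0.21 when a library was left out. With red-cell miRNAs equal the spread of miR-151-5p was 0.33, of miR-191-5p 0.43, of miR-340-5p 0.58 and of miR-361-5p 0.33, and with no count minimum that of miR-361-5p was 0.22. For miR-186-5p, whose replicates differed least, the spread was 0.21 with DESeq2 size factors, 0.09 with total counts only, 0.18 with upper quartile, 0.10 with the total without miR-9-5p, 0.48 with red-cell miRNAs equal, 0.18 with reference miRNAs equal, 0.33 with no count minimum, and 0.24 with at least 100 counts and with precursor rows summed, and 0.20 to 0.26 when a library was left out. Leaving out a library gave spreads of 0.23 to 0.59 for miR-423-5p, 0.11 to 0.40 for miR-340-5p, 0.04 to 0.20 for miR-425-5p and 0.11 to 0.21 for miR-191-5p.

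The number of miRNAs lower in Rx-Dicer, 7 with TMM, was 4 with DESeq2 size factors, 0 with total counts only, 3 with upper quartile and with the total without miR-9-5p, 5 with red-cell miRNAs equal, 0 with reference miRNAs equal, 14 with no count minimum, 11 in DESeq2's Wald test, 10 with at least 100 counts and 0 to 5 when a library was left out. Set equal singly, after the data were seen, the members gave 2 (miR-191-5p), 1 (miR-186-5p), 0 (miR-423-5p, miR-361-5p and miR-340-5p), 8 (miR-425-5p) and 5 (miR-151-5p), and 5 were called with all but miR-423-5p. With the replicate block in the model the number was 0, with 20 lower and 4 higher at an unadjusted edgeR p under 0.05. The deviations of libraries that share a number correlated at 0.086 over 274 miRNAs. The labels give no shared litter or day, so whether such libraries share more than a number is not known. The causes of these moves were not tested. With 2 libraries per genotype, the 95% intervals of the members reached from 0.52 to 0.88 on the log2 scale to each side of the estimate.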
